A study of Caenorhabditis elegans with 4 samples.

Results

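SKN-1::GFP regions on chromosome II of Caenorhabditis elegans are the subject here. They are all regions of the authors' deposited list whose chromosome is II, and they number 1040 of 7714 in all, or 13.5%. The other 6674 lie on chromosomes I, III, IV, V and X. The material came from strain OP178 at the fed L1 stage, the first larval stage, in hermaphrodites kept at 20 °C, with the genotype unc119(ed3);wgIs178. The transgene wgIs178 holds skn-1 joined to TY1, EGFP and FLAG tags together with unc119, and it was brought in by bombardment, per the labels. The ChIP group (2 libraries) was precipitated with goat antibodies against GFP, and the input group (2 libraries) is the same kind of chromatin without precipitation. Both groups carry the same transgene, and no untagged strain was analysed here. All cells of the larva entered each library, and the labels' protocol speaks of embryos being lysed although every sample is labelled fed L1. The list merges the libraries, so no spread between replicates can be given, and the regions of a chromosome are not replicates of a condition. Positions are on WormBase WS180.

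SKN-1 is a transcription factor related to the mammalian Nrf proteins. It is known for switching on detoxification and oxidative stress genes in the intestine, and, in the early embryo, for setting the fate of cells that give rise to the gut and to mesodermal tissues. It binds DNA without the leucine zipper that its mammalian relatives use to pair with a partner. Chromosome II is an autosome. On worm autosomes, broadly conserved genes are packed into the central part, while the outer arms recombine more often and hold more repeats. Genes near the regions and the DNA sequence under them were not analysed here, since the only gene table used is built on WBcel235, not on WS180.

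Chromosome II regions were short, and ChIP exceeded input modestly at most of them. Their median width was 361 bp (quartiles 203 and 524 bp), and the regions together covered 478 kb, or 3.13% of the 15.2 Mb between their outermost edges (the span below). Every listed region has a q value (the p value adjusted for the number of regions tested) under 0.01, and the q values of the list imply that 14281 regions were tested over all chromosomes, of which 54.0% were listed. How many were tested on chromosome II is not known, so its 1040 cannot be read against that share. The q values of II ran from 1.21e-161 to 0.00990, with a median of 9.67e-05. Under 1e-10 lay 198 regions (19.04%), against 1239 (18.6%) on the other chromosomes. Over the whole list 18.6% of the listed regions, or 10.1% of the tested ones, were under this limit. The share among the listed regions of II is thus close to the background.

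The depth behind each region was recovered from its q value, as a number of ChIP tags (sequenced fragments counted in the region) and a number of input tags scaled to the ChIP libraries. The median region on II held 94 ChIP tags and 43 scaled input tags, which stand for 25 input tags as counted before scaling. The ratio of ChIP to scaled input tags had a median of 2.39, with quartiles of 1.98 and 3.16. At 756 regions (72.7%) it exceeded 2, and at 107 (10.3%) it exceeded 4. The shares on the other chromosomes were near, 76.5% and 11.7%. The lowest ratio was 1.34, at the region from 6823227 to 6824788, with 249 ChIP tags and 186 scaled input tags. Chromosome II, much like the rest of the list, thus holds a broad body of regions a little over 2-fold above input. A thin tail had higher ratios, some of them on few input tags. Intervals on single ratios below are 95% exact (Clopper-Pearson) intervals. They cover counting error only, and they take the input scaling as known. They rest on input tags before scaling, multiplied by the scaling factor. The ratio itself divides by scaled input tags, which are rounded up. Ratio and interval thus use somewhat different input numbers, mostly where tags are few.

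**Figure D1:**
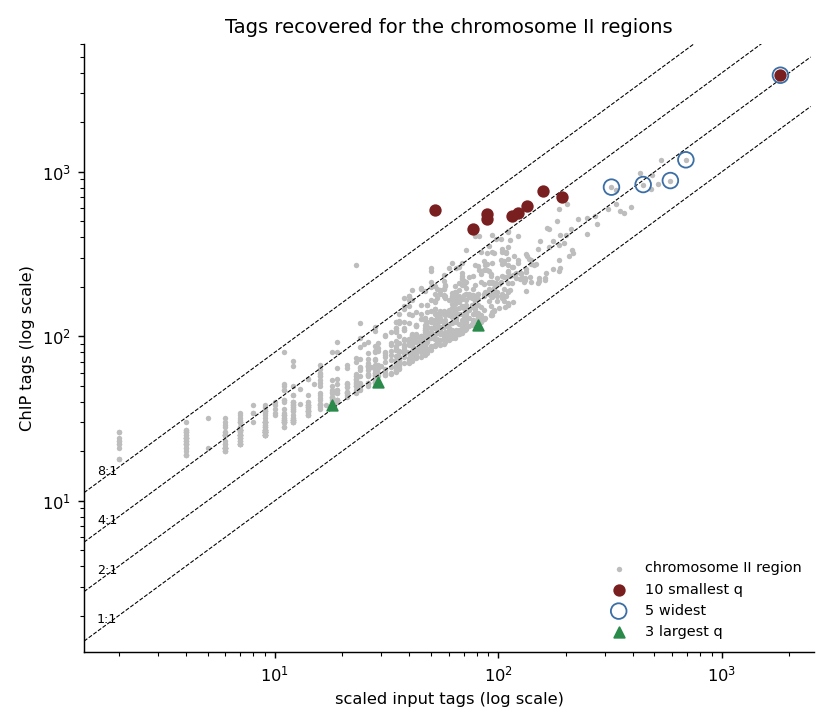
ChIP tags (vertical, log scale) against scaled input tags (horizontal, log scale), 1 point for each of the 1040 chromosome II regions, with dashed lines at ratios of 1, 2, 4 and 8. The 10 regions with the smallest q hold 452 to 3874 ChIP tags, the widest region stands alone at the upper right, and the 3 regions with the largest q lie on the lower edge, which the q limit cuts at a higher ratio where tags are few.

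The strongest region by ratio on a firm input count lay at 10949860 to 10950434. It was 575 bp wide and had 584 ChIP tags and 52 scaled input tags, a ratio of 11.2 (7.91 to 17.1). The next, among the 621 regions that held 20 or more unscaled input tags, was at 11652474 to 11653115, with 557 ChIP tags and 89 scaled input tags and a ratio of 6.26 (4.72 to 8.52). The lower bound of the first lies above the point value of the second, and the 2 intervals overlap. The first had 38.7 input tags per kb before scaling, below the chromosome's median of 48.6, and 754 ChIP tags per kb, against a median of 183. A region with fewer input tags reached a like ratio. At 13624210 to 13624624, 273 ChIP tags stood against 23 scaled input tags, which gave 11.9 (7.08 to 23.4). This region was singled out after its values were seen, since its 13 input tags before scaling fall under the minimum.

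Of the 10 regions with the smallest q on II, 8 lay in the right-hand 50% of the span. The third and the last 25% of the span held 27.2% and 29.3% of all regions of II. Of the regions with a q under 1e-10 they held 29.3% and 34.8%. Whether 8 of 10 exceeds these shares was not tested. The smallest q belonged to the widest region, at 10541846 to 10556199. It was followed by the region at 10949860 and by one at 10562810 to 10563745, which had 768 ChIP tags and 159 scaled input tags, a ratio of 4.83 (3.90 to 6.07). These 10 held 6.71% of the ChIP tags of all chromosome II regions. A pair of them lay close together, with 1 other listed region between them, at 11759088 to 11759695, which had 435 ChIP tags and a ratio of 3.95. The ratio of the region at 11756528 to 11757238 was 4.54 (3.56 to 5.91) on 559 ChIP tags, and the one at 11761547 to 11762473 had 4.59 (3.64 to 5.89) on 620. They differ by less than their counting error. The remaining left-hand members were at 43537 to 44056, close to the left end of the span, with a ratio of 5.81 (4.38 to 7.91), and at 4698247 to 4698650, with 5.87 (4.33 to 8.19). Their ratios overlap as well, although 1 lies 0.165% and the other 30.7% along the span.

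The last members of that set were at 8483128 to 8484773 and at 14496547 to 14497232. The first was 1646 bp wide with 703 ChIP tags and a ratio of 3.64 (2.99 to 4.49), the highest among the 56 regions of at least 1000 bp. The second was 686 bp wide with 538 ChIP tags and a ratio of 4.68 (3.65 to 6.17). It sat in a group of 4 regions within 3.70 kb whose ratios ran from 3.11 to 4.68. The 10 highest ratios at 20 or more input tags shared 5 regions with the 10 smallest q. The other members of the high-ratio set were narrow, from 383 to 630 bp. ChIP exceeded scaled input 5.22-fold (3.59 to 8.04) at 9160042 to 9160490 and 5.19-fold (3.85 to 7.25) at 4044187 to 4044816. The ratio was 5.0 (3.43 to 7.71) at 11238862 to 11239265 and 4.99 (3.70 to 6.89) near the right end, at 15173077 to 15173605. The tenth, at 8062175 to 8062557, had 4.68 (3.06 to 7.50). The interval of the first lies above those of the last 5 of these 10 (highest upper bound 7.71) and overlaps those of the other 4. The intervals of the 9 below the first all overlap one another, and the depth does not settle how these rank. Ratios picked as the highest also tend to lie above their true values.

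At the other end, the 3 regions with the largest q had intervals that only just clear a ratio of 1. The region at 3961238 to 3961608 had 53 ChIP tags and 29 scaled input tags, a ratio of 1.83 (1.04 to 3.37). The region at 7111580 to 7111955 had a lower ratio, 1.46 (1.04 to 2.11), on more tags, 118 of ChIP and 81 of scaled input. The region at 1341718 to 1341941 had 2.11 (1.09 to 5.02) on 38 and 18. Just inside the limit, lower ratios thus went with more tags.

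The widest region on II, 14354 bp, was 2.64 times as wide as the next and held 2.83% of the ChIP tags of the chromosome's regions. Its 3874 ChIP tags stood against 1831 scaled input tags, a ratio of 2.12 (1.98 to 2.27). Its input density, 74.8 tags per kb of width before scaling, lay inside the range of the 55 other regions of at least 1000 bp, which ran from 33.8 to 125 with a median of 71.1. Its ratio is below the median of the chromosome, and its rank by q rests on its many tags. It did not stand alone. To its right, after a gap of 321 bp, followed a region of 1471 bp at 10556521 to 10557991 with a ratio of 1.87 (1.52 to 2.34). After a further 350 bp came one of 1478 bp at 10558342 to 10559819 with 1.68 (1.39 to 2.04). The narrower, stronger region at 10562810 closes the stretch, 2.99 kb farther on. These 4 regions cover 18239 bp of 21.9 kb and hold 3.97% of the ChIP tags, with 0.385% of the regions. The first 3 have ratios near 2 and ChIP densities of 221 to 266 tags per kb (width plus 200 bp), while the fourth has 676. To the left, the nearest neighbour lay 3.60 kb away, at 10537894 to 10538245, with a ratio of 2.74 (1.79 to 4.45).

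**Figure D2:**
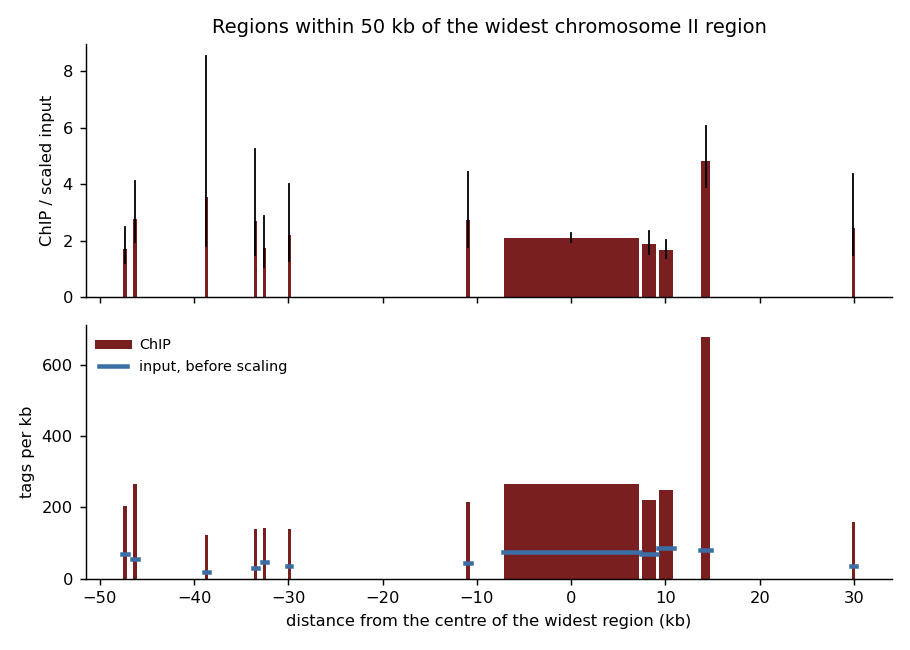
Regions within 50 kb of the centre of the widest chromosome II region, drawn at their widths (at least 0.3 kb), by distance from that centre (horizontal, kb). The upper panel gives the ChIP to scaled input ratio with its 95% exact interval (black line), the lower panel tags per kb of ChIP (bars) and of input before scaling (blue lines); the broad block near a ratio of 2 and the narrow region at 4.83 to its right stand next to each other.

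The next widest regions had ratios on both sides of the chromosome's median of 2.39. The region at 8124772 to 8130211 (5440 bp) had 1.71 (1.53 to 1.93), and the one at 8741232 to 8746085 (4854 bp) had 1.504 (1.329 to 1.71). The region at 4854582 to 4858218 (3637 bp) had 2.52 (2.15 to 2.97), above the 1.88 (1.64 to 2.17) of that at 5335229 to 5338776 (3548 bp). Broad regions of II ranged from 1.34 to 3.64 in ratio, so none reached 4. Their median was 1.92, against 2.15 among the 381 regions of this width on the other chromosomes. The difference was not tested. Of the 56, 43 (76.8%) lay in the central 50% of the span, which held 555 of all 1040 regions of II. A q under 1e-10 was reached by 36 of them (64.3%), against 70.6% of the 381 on the other chromosomes and 19.04% of all regions of II.

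Narrower regions of II had higher ratios, and with few tags only a high ratio can pass the limit on q. The 128 regions of II under 100 bp had a median of 25 ChIP tags and a median ratio of 3.50, and none had a q under 1e-10. The 169 of 100 to under 250 bp had medians of 38 ChIP tags and a ratio of 2.73. The 461 of 250 to under 500 bp, the most frequent width, had 98 ChIP tags and 2.24. The 226 of 500 to under 1000 bp had 176 ChIP tags and 2.18, and 89 of them (39.4%) had a q under 1e-10. In the same order of widths, the other chromosomes had median ratios of 3.67, 2.65, 2.33 and 2.21. At 500 to under 1000 bp, 36.9% of their regions had a q under 1e-10, and under 100 bp none had. The order by width is thus not particular to II. The 6 regions of a single base on II held 19 to 25 ChIP tags and 2 to 9 scaled input tags. A high ratio in a very narrow region on II therefore rests on few input tags, 4 before scaling in the median region under 100 bp.

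Along chromosome II the regions thinned out on the left. The first 25% of the span held 180 regions, 17.3% (95% exact binomial interval 15.1 to 19.7), or 47.2 per Mb. The following 25% stretches held 272 (26.2%) and 283 (27.2%), and the last held 305, 29.3% (26.6 to 32.2) or 80.01 per Mb. The intervals of the first and of the last do not overlap, but they treat neighbouring regions as independent and are too narrow. Regions with a q under 1e-10 followed the same order, with 24, 47, 58 and 69, so that 34.8% of them were in the last 25% and 12.1% in the first. In steps of 10% of the span, the sparsest was the third, from 3068163 to 4592911, with 60 regions or 39.4 per Mb. The densest was the eighth, from 10691910 to 12216659, with 140 regions or 91.8 per Mb. The low count on the left was uneven, since the 5% step from 2305788 to 3068162 held 70.8 regions per Mb, close to the centre.

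Chromosome I had 20.5% and 21.2% of its regions in its first and last 25%, III 19.9% and 26.0%, and V 21.4% and 20.0%. IV had 25.9% and 17.8%, and X 26.4% and 26.7%. The lowest first share and the highest last share among the 6 chromosomes were those of II. No test of this difference was made.

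**Figure D3:**
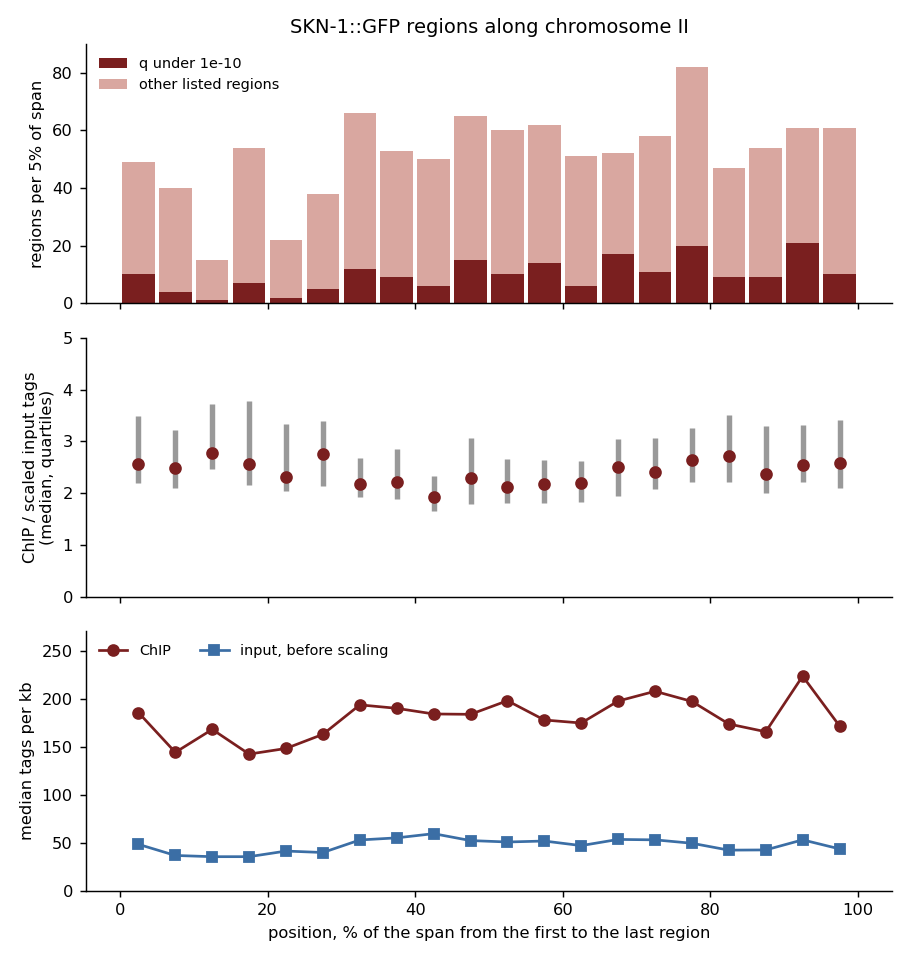
Chromosome II in 20 steps of 5% of its span (horizontal), which runs from the leftmost to the rightmost region. The panels show the number of regions, with those of q under 1e-10 in dark red, the median ChIP to scaled input ratio (points) with quartiles (grey lines), and the median tags per kb of ChIP (red) and of input before scaling (blue). The counts fall to 15 and 22 in 2 steps on the left and reach 82 in the step that starts at 75%, and the ratios are lowest near the middle.

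The longest empty stretches of II were also on the left. The other 5 chromosomes together had 36 distances over 100 kb between neighbouring regions, and II had 6. Of these 6, 5 lay in the first 25% of the span of II. The longest, 312 kb, ran from 1504561 to 1816492. It was flanked on the left by a region at 1504321 to 1504560 with 41 ChIP tags and 11 scaled input tags, a ratio of 3.73 (1.69 to 11.6). On its right, the region at 1816493 to 1816580 had 25 and 9, a ratio of 2.78 (1.10 to 9.81). The next 2 longest, 153 kb from 1905587 to 2058999 and 133 kb from 2059358 to 2192326, were parted by a single region. That region, at 2059000 to 2059357, had 120 ChIP tags and 53 scaled input tags, a ratio of 2.26 (1.52 to 3.49). The left flank of the 153 kb gap was a region of 101 bp at 1905486 with 27 ChIP tags, and the right flank of the 133 kb gap a region of 6 bp at 2192327 with 19. The regions beside these gaps were thus ordinary or thin in tags. Whether reads could be placed uniquely in the empty stretches was not analysed here.

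The crowded windows of II held both weak and strong regions. Windows of 100 kb held 6.80 regions on average, 2 of the 153 windows held none, and 32 held at least 10. The densest, at 12000001 to 12100000, held 20 regions, with ratios from 1.41 to 4.16 and 3 with a q under 1e-10. The window at 2900001 to 3000000 held 18, with ratios from 1.48 to 10.5, the highest on 21 ChIP and 2 scaled input tags, and lies in the sparse left part. The window at 5300001 to 5400000 held 15 broader regions, of 285 to 3548 bp, with ratios from 1.72 to 3.44 and 6 with a q under 1e-10. None of the 10 smallest q values of II fell in these 3 windows, which hold few of the regions. The next window, at 11600001 to 11700000 with 14 regions, holds the region at 11652474, whose ratio is 6.26.

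Regions of II stood farther apart than those of the other 5 chromosomes as a whole. The median distance from the edge of one region to the next was 7.61 kb, against 5.94 kb, and 302 regions (29.0%) had the midpoint of another within 2 kb, against 36.7%. The interval of the share on II is 26.3 to 31.9% (exact binomial), and V had 29.1%, so II was not set apart from it. On V the median distance was longer than on II, 8.27 kb. The difference in spacing was not tested. Joined wherever edges lay within 2 kb, the 1040 regions formed 815 groups. Of these, 658 were regions on their own, 116 were pairs, 27 held 3 and 14 held at least 4. The largest group held 10 regions in 12.6 kb, from 12092121 to 12104750, with 1094 ChIP tags and 391 scaled input tags in all. Groups of 7 lay at 2969576 to 2978020 and at 5320075 to 5332781. No neighbours were closer than 203 bp. The regions with a near neighbour had a median ratio of 2.27, and 14.9% of them had a q under 1e-10, against 2.43 and 20.7% for the 738 others.

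**Figure D4:**
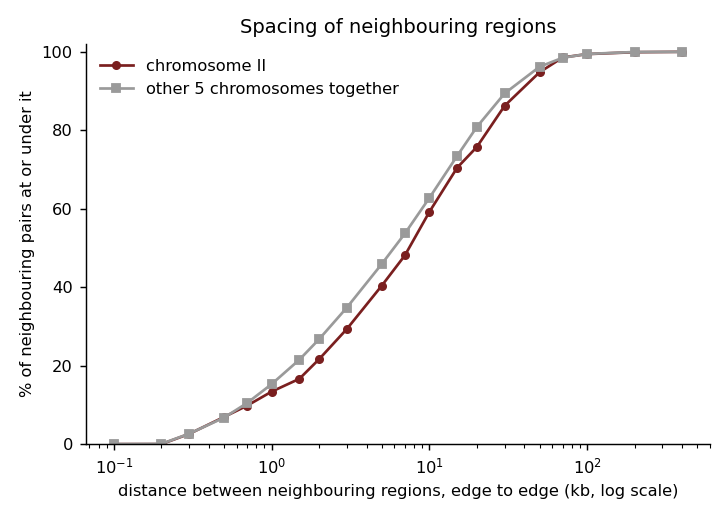
Share of neighbouring pairs (vertical, %) whose edges lie at or under a given distance (horizontal, kb, log scale), for chromosome II and for the other 5 chromosomes together. The curves meet near 0.5 kb, and the chromosome II curve runs lower from 1 to 50 kb, with 21.7% against 26.8% of pairs within 2 kb.

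The centre of II had more input and lower ratios than its ends. In the outer 25% at either end together, the 485 regions had a median ratio of 2.57, and in the central 50% the 555 regions had 2.25. The 95% order-statistic intervals of these medians, 2.49 to 2.73 and 2.19 to 2.32, do not overlap. They too treat neighbouring regions as independent and are too narrow, and the difference was not tested. Input density moved along with this. Among regions of at least 250 bp, the median input density before scaling was 43.4 tags per kb in the outer parts and 52.6 in the centre. More input tags let lower ratios pass the limit, so the ratios were also set side by side at 20 to 40 input tags before scaling. There the medians were 2.31 (2.22 to 2.43) on 150 outer regions and 2.14 (2.06 to 2.23) on 211 central ones, and the intervals touch. The difference thus shrank to 0.17, against 0.32 over all regions. In this band 28.0% of the outer regions and 17.5% of the central ones had a q under 1e-10, but over all regions of II the shares were close, 19.2% and 18.9%.

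The other autosomes showed the same order of outer and central ratios. The medians were 3.00 and 2.52 on I, 2.59 and 2.18 on III, 2.94 and 2.58 on IV, and 2.75 and 2.35 on V. X had 2.25 in both parts. The pattern is therefore not particular to II.

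Beside the other chromosomes, II had the fewest regions and the second lowest density, 68.2 per Mb of span, with 58.6 on V below it and 80.5 on X as the next above. Its median width of 361 bp lay between the 343 bp of V and the 367 bp of III. Its median ratio of 2.39 (2.34 to 2.47) overlapped in its interval with the 2.36 (2.29 to 2.41) of III and with the 2.52 (2.45 to 2.58) of V. It was below the 2.71 (2.65 to 2.78) of IV and the 2.69 (2.64 to 2.75) of I, and above the 2.25 (2.21 to 2.30) of X. These intervals treat regions as independent, and they do not cover the input scaling, which differs by chromosome. The factor inferred for II was 1.705, the highest, with 1.699 on III, 1.58 on V, 1.57 on X, 1.326 on I and 1.32 on IV. Before scaling, II had the highest median ratio of the 6, 4.16, and I and IV had 3.63 and 3.65. The order of II against I and IV thus turns with the scaling.

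At like numbers of scaled input tags, II and the others were close. With 40 to under 80 scaled input tags the median ratio was 2.17 (2.11 to 2.25) on 362 regions of II and 2.21 (2.18 to 2.25) on 1993 of the others. With 80 or more it was 2.03 (1.89 to 2.12) and 2.06 (2.00 to 2.09). With 20 to under 40 it was 2.25 (2.19 to 2.37) and 2.37 (2.33 to 2.40). All ChIP tags over all scaled input tags gave 2.31 on II and 2.31 on the others together. Among the single chromosomes this ran from 2.17 on IV to 2.64 on I. By this measure II lay above IV, the reverse of their order by median ratio. Regions of II held 15 of the 100 smallest q values of the list, near the 13.5% of all listed regions that lie on II. The other chromosomes held from 11 (I) to 27 (X) of them.

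**Figure D5:**
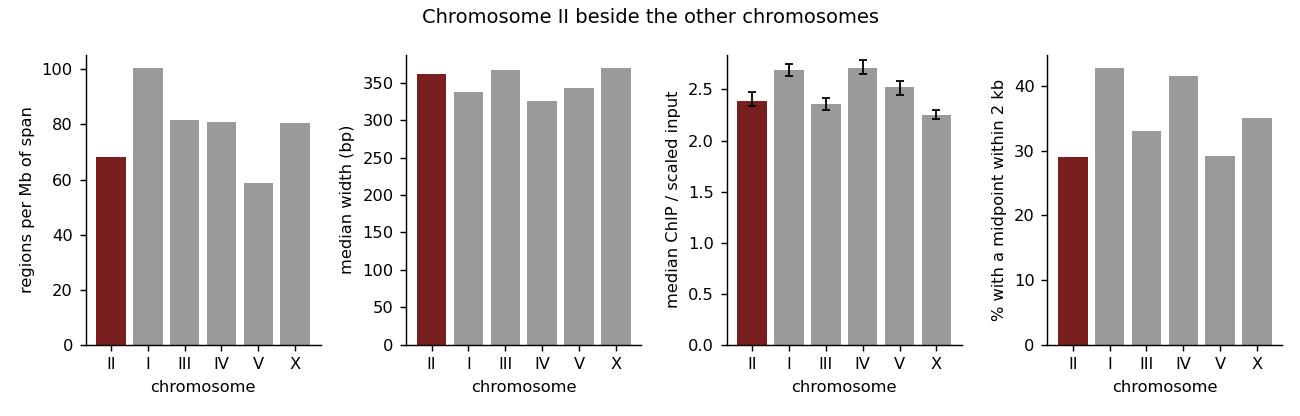
Chromosome II (dark red) and the other chromosomes (grey): regions per Mb of span, median width in bp, median ChIP to scaled input ratio with its 95% order-statistic interval, and the percentage of regions with another midpoint within 2 kb. Chromosome II has 68.2 regions per Mb, and V is the chromosome with fewer, at 58.6.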

How the data were processed

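The authors deposited 1 list of regions for the 2 ChIP and 2 input libraries, called with PeakSeq on coordinates of WS180, per the file headers and the source column. Its only measurement is a q-value per region, deposited by the authors. Not given in the sources used here: aligner, caller settings, library totals and how libraries were merged. The work was done in Python 3.11.15 (SciPy 1.17.1, NumPy 2.4.6, pandas 2.3.3). Each q was read as p × N / (rank + 1), where N was solved as 14281, and each p as the lower tail of a binomial with probability 0.5. A single pair of whole numbers fitted at 7710 regions, including all 1040 on II (tolerance 1e-09 in the natural log of p); that these are scaled input and ChIP tags rests on knowledge of PeakSeq. Scaled input tags lie on rounded-up multiples of a factor, 1.7048 on II, at 97.9% of its regions, against 58.7% of whole numbers; dividing by it and rounding down gave input tags before scaling. Tags per kb use width plus 200 bp and regions of at least 250 bp, unless per width is said. Median intervals are exact order-statistic intervals at 95% that treat regions as independent. The recovery of N, of the tag pairs and of the factors was tested on data simulated under these same rules. Such a test cannot show that the deposited q values were made this way. Named by rule were 10 regions of smallest q, the 5 widest, the 10 of highest ratio at 20 or more input tags, the 3 densest windows of 100 kb, the flanks of the 3 longest gaps and the 3 largest q. Members and rules were chosen with earlier results of these data known, and the split into outer and central parts after the data were seen. Where the list gave no test, values are described only.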

Additional observations from a re-analysis of the deposited data

How the results depend on the processing

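No paired analysis was possible because the list merges the libraries, and for that reason no replicate could be left out. The interval was a 95% one, except for the difference between outer and central ratios, whose interval is described below. Of 39 alternatives, 14 stayed within the interval of the reported value and 25 moved out of it. The count that turned direction was 0, but only the difference between outer and central ratios has a direction to turn. Of the 39, 7 were added after the data were seen. The share of II in the list stayed at 13.2 to 13.7%. In the best-ranked 50% and 25% of the list, II had 33.4 and 17.4 regions per Mb by construction, median widths of 457 and 551 bp, median ratios of 2.51 and 2.92, 50.6 and 55.8 input tags per kb, and 14.3% and 8.68% of regions with a midpoint within 2 kb. In the best-ranked 25% the first part of the span held 12.8% and the last 33.2%. Regions of at least 100 bp gave 59.8 per Mb, 386 bp and a ratio of 2.27. The ratio was 4.16 before input scaling and 2.14 at 20 or more input tags. Neighbours came to 11.2% within 1 kb, 59.6% within 5 kb and 36.7% by edges. Of covered base pairs, 14.1% lay in the first 25% of the span (14.5% without the widest region) and 25.9% in the last (26.7% without it). Input density by width alone at 500 bp or more was 71.1 tags per kb. The difference between outer and central ratios moved to 0.17 at 20 to 40 input tags (interval -0.0011 to 0.37). In the best-ranked 25% it was 0.32, with an interval of -0.087 to 0.68 that also reaches below 0. These intervals run from the lower outer bound minus the upper central bound to the upper outer bound minus the lower central bound. They join the 95% intervals of the separate medians and are not 95% intervals of the difference. For independent regions they are too wide, so reaching below 0 decides nothing about the difference. Some shifts follow from the change itself, as for the regions per Mb. Leaving out the scaling raises the ratio, dropping narrow regions raises the median width, and other distance limits move the neighbour share. The cause of the other shifts was not tested. Low tag numbers limit the regions under 100 bp most.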
